A study of Mus musculus with 8 samples.

Results

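Grb10, Commd1 and Zrsr1 are 3 genes of mouse chromosome 11 that belong to 2 imprinted regions, and they were taken from the deposited table by symbol, 3 of 22810 genes. Each was followed through the maternal and paternal reads of single E3.5 blastocysts. In the forward cross a C57BL/6 (B6) mother was mated to a *cast* father, with 3 embryos. The reverse cross had a *cast* mother and a B6 father, with 5 embryos numbered 1, 2, 3, 5 and 7. All embryos came from natural mating without in vitro culture and carried no engineered allele, and *cast* is an inbred strain of the subspecies castaneus. Each embryo was a whole blastocyst of unsorted cells, so that fewer cells of a type and less RNA per cell cannot be told apart. The litters are not given in the sources used here, and p-values refer to the spread between these embryos.

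An imprinted gene is read mainly from the copy of 1 parent, under marks that differ between the parental copies, such as DNA methylation or histone methylation set in the egg or the sperm. The marked copy is silent at some imprinted genes and the expressed one at others. Grb10 encodes an adaptor protein that binds the activated insulin and IGF receptors and restrains growth. It is known for maternal expression in many tissues and for paternal expression in neurons. Zrsr1 encodes a U2AF-related protein of splice site recognition. It arose as a copied messenger RNA of its X-linked relative Zrsr2 and is known for paternal expression. It sits within Commd1, which encodes a protein of copper handling, endosomal sorting and NF-kappa-B control and is known for a maternal bias in the adult brain.

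Grb10 (ENSMUSG00000020176.17) lies on the minus strand at chr11:11930508-12038683 of mm10, with 9 annotated transcripts. Commd1 (ENSMUSG00000051355.18) lies on the minus strand at chr11:22896136-22982382 and has 6. Zrsr1 (ENSMUSG00000044068.7) has 1 exon at chr11:22972005-22976496 on the plus strand, 1284 bases of it coding. The whole of Zrsr1 falls within the first intron of the transcript Commd1-204, which runs from 22956693 to 22982078, and the starts of both genes are 10377 bases apart. A further pair of Commd1 transcripts each have an exon inside the Zrsr1 exon on the other strand, of 203 and 209 bases, and the first of these lies within Zrsr1 coding sequence. Whether the authors counted reads by strand is not stated in the sources used here, so that reads of both genes cannot be told apart in these stretches. The readthrough gene Gm28048, which spans Commd1, was not analysed here, and LOC102631979, which lies within Grb10, had 7 reads. Since reads with multiple positions were left out, stretches that Zrsr1 shares with its relative Zrsr2 add no reads to either.

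**Figure D1:**
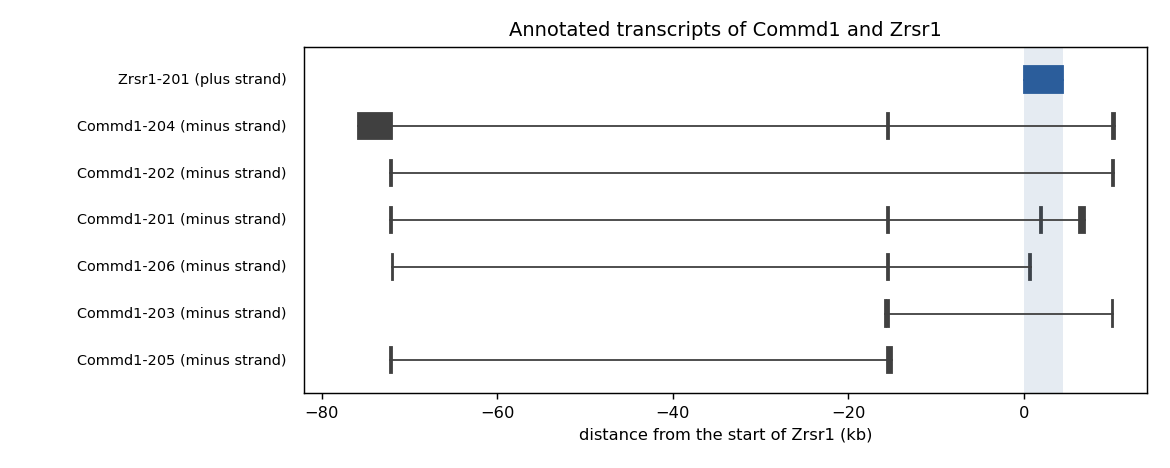
Annotated transcripts of Commd1 and Zrsr1, with the distance from the start of Zrsr1 in kb on the horizontal axis, boxes for exons, lines for introns and a shaded band for the 4492 bases of Zrsr1. The band falls within introns of Commd1-204, and exons of a further pair of Commd1 transcripts lie inside it.

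The bases just before annotated starts are shown because Grb10 has several starts and because the starts of Zrsr1 and Commd1 lie apart on opposite strands. They are the parts of the RefSeq promoter windows (GRCm38.p6, 250 bases before and 50 after a start) that precede the start and that no exon of the 3 genes covers, 5′ to 3′ on the strand of the gene, with each CG, the dinucleotide that carries DNA methylation, in capitals. All 3 genes had a window, and a second Commd1 window is not printed because it lies within the Zrsr1 exon.
Grb10, upstream start, chr11:12037421-12037670, minus strand: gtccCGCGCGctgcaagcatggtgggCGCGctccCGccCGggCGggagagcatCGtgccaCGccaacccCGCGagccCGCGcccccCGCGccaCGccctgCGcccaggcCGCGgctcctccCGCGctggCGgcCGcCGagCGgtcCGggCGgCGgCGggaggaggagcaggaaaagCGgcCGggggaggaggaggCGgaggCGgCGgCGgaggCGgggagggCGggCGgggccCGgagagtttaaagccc
Grb10, downstream start, chr11:12027972-12028221, minus strand: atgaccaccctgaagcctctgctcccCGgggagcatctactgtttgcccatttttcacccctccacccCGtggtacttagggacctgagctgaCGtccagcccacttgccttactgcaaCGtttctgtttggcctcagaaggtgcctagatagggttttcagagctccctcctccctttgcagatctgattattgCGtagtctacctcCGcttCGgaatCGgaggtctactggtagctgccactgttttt
Commd1, chr11:22982383-22982534, minus strand: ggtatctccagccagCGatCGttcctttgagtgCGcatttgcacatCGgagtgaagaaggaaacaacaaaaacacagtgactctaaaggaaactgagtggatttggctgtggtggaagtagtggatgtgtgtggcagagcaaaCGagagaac
Zrsr1, chr11:22971755-22972004, plus strand: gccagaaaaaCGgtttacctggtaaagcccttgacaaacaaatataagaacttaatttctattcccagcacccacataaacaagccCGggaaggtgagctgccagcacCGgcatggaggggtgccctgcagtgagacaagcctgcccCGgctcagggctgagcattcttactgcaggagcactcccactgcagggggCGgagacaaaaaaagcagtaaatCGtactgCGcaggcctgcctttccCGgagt

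The upstream Grb10 window of 300 bases held 45 CG, more than 98.1% of the 32851 promoters in the table, for which the median was 7. The downstream Grb10 window held 9, the first Commd1 window 18 and the Zrsr1 window 10. These counts cover whole windows. The printed stretches held 40 and 8 CG for Grb10, upstream and downstream, 5 for Commd1 and 8 for Zrsr1. The letters TGCCGC, which the imprint-protecting protein ZFP57 is known to bind when methylated, were found on either strand once in the upstream Grb10 window and once in the first Commd1 window, and not in the windows of Zrsr1 and the downstream Grb10 start. The printed stretches did not hold these letters. Of all promoters in the table, 11.6% held them. Methylation was not analysed here.

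SNP-spanning reads summed to between 1060063 and 1632695 per embryo. B6 alleles took more of them than *cast* alleles, since the paternal share of all reads was 42.0% ± 0.307 (SD, n = 3) in forward embryos and 57.8% ± 0.275 (SD, n = 5) in reverse ones, a shift of 15.8 percentage points that the normalization of the fit takes out and that plain read shares keep. All 6 inner cell mass and all 7 trophectoderm markers were detected in every embryo. In reverse embryo 1 the trophectoderm markers summed to 930 RPM (reads scaled to 1000000 SNP-spanning reads of the embryo), against 3680 to 4993 RPM in the others, and its median correlation with the other embryos was 0.754, against 0.863 to 0.899. The 6 leukocyte markers, genes of the blood cell lineage, summed to between 36.0 and 688 RPM in the forward and between 3.34 and 5.32 RPM in the reverse embryos, with none of the markers at 0 over all embryos. They were read 1230 times from the maternal and 15 times from the paternal allele, and forward embryo 1 alone held 1123 of the maternal reads. The part of these differences in the results on the 3 genes was not tested, and values without each embryo are given where it changes a call.

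Grb10 had more reads from the B6 than from the *cast* allele in 7 of 8 embryos. In reverse embryos 1 and 7 its B6 share, 59.8% and 59.2%, was close to that of all reads, 57.4% and 57.8%. In the forward cross, maternal B6 reads numbered 13, 13 and 15 in embryos 1, 2 and 3, and paternal *cast* reads 3, 4 and 1. All 3 forward embryos thus had more maternal reads. In reverse embryos 1, 2, 3, 5 and 7, maternal *cast* reads numbered 92, 17, 9, 9 and 20, and paternal B6 reads 137, 59, 3, 26 and 29. Paternal reads were in excess in 4 of these 5 embryos, and reverse embryo 3 was the exception with 9 maternal and 3 paternal reads.

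Forward embryos had a Grb10 paternal share of 16.2% ± 8.92 (SD, n = 3), and reverse embryos one of 59.2% ± 20.8 (SD, n = 5). Each forward embryo was below each reverse embryo, from 6.25% to 23.5% against 25.0% to 77.6%. The difference of 43.0 points had p = 0.0357 in a two-sided exact permutation test of the 56 arrangements of embryos. That is the smallest p this design allows. The shift of 15.8 points in all reads went the same way and was not taken off in this test. Its p thus refers to the plain shares and not to a Grb10 shift beyond that of all reads. Forward embryo 2 at 23.5% and reverse embryo 3 at 25.0% lay closer together than 15.8 points. Read as B6 share, Grb10 had 83.8% ± 8.92 in forward and 59.2% ± 20.8 in reverse embryos. The B6 allele held 57.8% of all reads in the reverse embryos. The exact 95% interval of single embryos, which covers counting error only, reached from 4.05% to 45.6% in forward embryo 1 with its 16 reads and from 53.2% to 66.2% in reverse embryo 1 with its 229 reads.

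**Figure D2:**
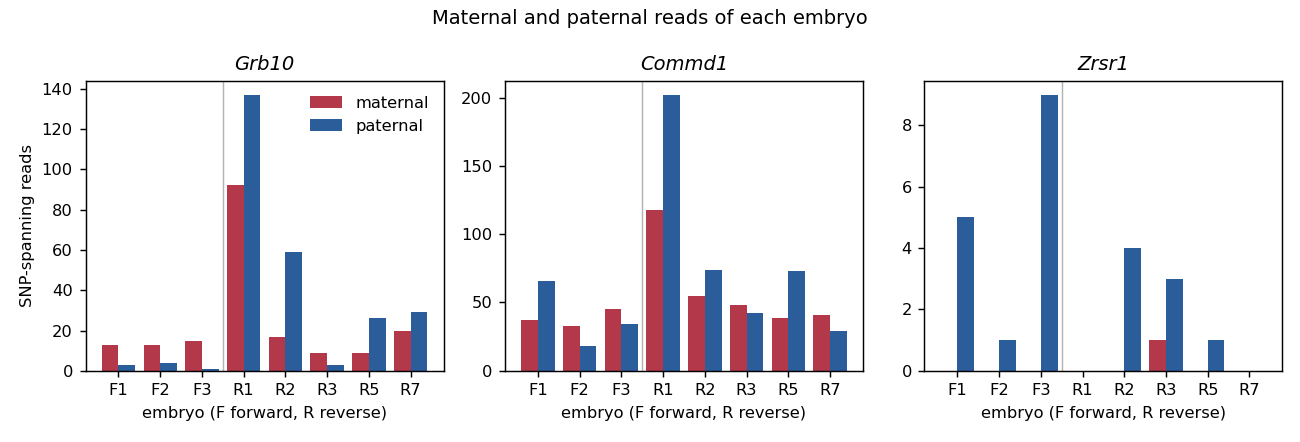
Maternal (red) and paternal (blue) SNP-spanning reads of Grb10, Commd1 and Zrsr1 on the vertical axes for each embryo, forward embryos F1 to F3 and reverse embryos R1 to R7, on an axis of its own for each gene. Maternal bars of Grb10 are the higher in F1, F2, F3 and R3, those of Commd1 in 4 of 8 embryos and those of Zrsr1 in none.

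Parental bias was tested in a fit over all genes with terms for strain and parent (edgeR quasi-likelihood test, Benjamini-Hochberg adjustment), in which genes with adjusted p of at most 0.1 were called. Grb10 had a log2 fold change of paternal over maternal reads of -0.49 (SE 0.96, adjusted p = 1.0). It was not called, while 1.42% of the 12565 genes tested were. Its strain difference, *cast* over B6, was -0.91 on the log2 scale (SE 0.96, adjusted p = 0.655), and 15.5% of all genes tested were called for strain, 11% in favour of B6. The alleles of 1 embryo form a pair, and with a term for each embryo the strain difference of Grb10 was -1.21 (SE 0.41, edgeR adjusted p = 0.0374), so that it passed, as did 25.5% of all genes. Of all genes, 15.8% passed in favour of B6 in this paired fit. The parental difference in the paired fit was -0.82 (SE 0.41, edgeR adjusted p = 0.544, unadjusted p = 0.0556), which did not pass, and 3.1% of all genes did. Equivalence of both parental alleles, tested against a margin of 2-fold with a pair of one-sided edgeR tests, was not reached for Grb10 either (adjusted p = 0.431).

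Among the 4825 genes with 200 to 1000 reads over all embryos, the SD of the paternal share between embryos of the same cross had a median of 12.6 points. That of Grb10 was 17.8 points, and 80.0% of these genes had a smaller one. Of the 450 Grb10 reads, 229 (50.9%) came from reverse embryo 1, whose share of 59.8% was close to the mean of its cross. Without that embryo the reverse share was 59.0% ± 24.1 (SD, n = 4).

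**Figure D3:**
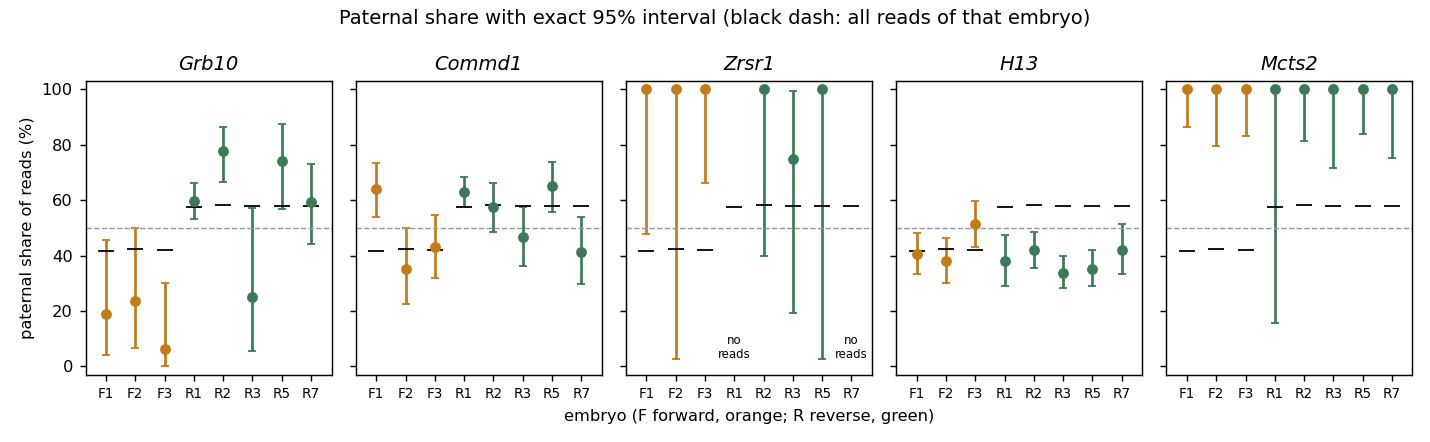
Paternal share of reads in percent on the vertical axis for each embryo, with exact 95% intervals, for Grb10, Commd1, Zrsr1 and the like pair H13 and Mcts2, forward embryos in orange, reverse embryos in green, and a black dash at the share of all reads of that embryo. Grb10 runs from 6.25% to 77.6% and changes with the cross, Commd1 from 35.3% to 65.2%, and Zrsr1 lies at 100% in 5 of the 6 embryos that had reads.

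Zrsr1 was read almost only from the paternal allele. Paternal *cast* reads numbered 5, 1 and 9 in forward embryos 1, 2 and 3, with 0 maternal reads in each. Paternal B6 reads numbered 0, 4, 3, 1 and 0 in reverse embryos 1, 2, 3, 5 and 7, and the only maternal read was in reverse embryo 3. In sum, 23 of 24 reads were paternal, or 95.8% with an exact 95% interval from 78.9% to 99.9%. For the 15 forward reads, all paternal, the exact interval began at 78.2%, and 3 reads taken as the limit of a count of 0 allow a maternal share of up to 20%.

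The paternal excess of Zrsr1 was present in 6 of 6 embryos with reads and in both crosses. Forward embryo 2 and reverse embryo 5 had 1 read each, which can only fall to 1 parent. The excess was in *cast* reads in the forward cross and in B6 reads in the reverse cross, which had 9 reads in all. Swapping maternal and paternal reads within embryos gave p = 0.03125 in a two-sided exact permutation test, the smallest p that 6 embryos with reads allow. Zrsr1 did not reach the 10 reads in an allele library that the fit over all genes required, since its highest value was 9. When the minimum was dropped, the log2 fold change was 3.89 (SE 1.30, unadjusted p = 0.00282, edgeR adjusted p = 0.130), which did not pass, while 1.93% of 21052 genes did, 1.31% with more paternal reads. Without reverse embryo 3, which held the only maternal read, it was 4.63 with edgeR adjusted p = 0.0839 and passed. Leaving out each other embryo gave an adjusted p of up to 0.672. The strain difference was 1.83 (SE 1.22, edgeR adjusted p = 0.378) in the fit without the minimum, where 13% of genes were called for strain.

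Commd1, the host, was read from both alleles in every embryo. In forward embryos 1, 2 and 3, maternal B6 reads numbered 37, 33 and 45 and paternal *cast* reads 66, 18 and 34. In reverse embryos 1, 2, 3, 5 and 7, maternal *cast* reads numbered 118, 55, 48, 39 and 41 and paternal B6 reads 202, 74, 42, 73 and 29. Neither parent led throughout, since maternal reads were in excess in 4 embryos and paternal reads in the other 4, with both kinds in each cross. The paternal share over all embryos was 52.0% ± 11.8 (SD, n = 8), from 35.3% to 65.2%.

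The shares of Commd1 in the 2 crosses overlapped, and their difference of 7.28 points had p = 0.464 in a two-sided exact permutation test. Its strain difference was 0.10 on the log2 scale (SE 0.39, edgeR adjusted p = 0.930). With a parental log2 fold change of 0.16 (SE 0.39), Commd1 passed the equivalence test (edgeR adjusted p = 0.0735), as did 35.6% of all genes tested. Leaving out forward embryo 1, 2 or 3 or reverse embryo 2, 3 or 7 ended this call, with an adjusted p of up to 0.201, and it was lost with 1 library size per embryo (adjusted p = 0.104). In embryos of the same cross the Commd1 share had an SD of 12.1 points, against a median of 9.28 points among 3600 genes with 500 to 2000 reads.

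Since reads of Zrsr1 may have been counted for Commd1 as well, the Commd1 counts were also examined after the Zrsr1 counts of the same allele had been taken off. The paternal reads fell to 61, 17 and 25 in the forward embryos and to 202, 70, 39, 72 and 29 in the reverse embryos, and the sums were 415 maternal and 515 paternal reads. The share moved most in forward embryo 3, from 43.0% to 35.7%. The mean over all embryos became 50.3% ± 12.7, the log2 fold change 0.05, and the equivalence test was still passed (edgeR adjusted p = 0.0592). In the 6 embryos with reads of both genes, the paternal share was 95.8% for Zrsr1 and 51.9% for Commd1 as deposited, a difference of 43.9 points with exact p = 0.03125 after swapping genes within embryos (two-sided permutation test, smallest possible p). With the Zrsr1 reads taken off, Commd1 had 49.7% in these embryos and the difference was 46.1 points (exact permutation p = 0.03125).

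The like pair on chromosome 2, Mcts2 within its host H13, was read with more depth. Mcts2, also an intronless copy known for paternal expression, had 126 paternal and 0 maternal reads (log2 fold change 7.19, edgeR adjusted p = 0.000223). H13 had a paternal share of 40.1% ± 5.46 (SD, n = 8) and more maternal reads in 7 of 8 embryos, whereas Commd1 did so in 4 of 8. The parental log2 fold change of H13 was -0.58 (SE 0.29, edgeR adjusted p = 0.716), and with a term for each embryo H13 passed at -0.56 (edgeR adjusted p = 0.0977). The Commd1 share exceeded the H13 share by 11.9 points on average, which did not pass 0.05 in an exact permutation test within embryos (p = 0.0625, two-sided). Herc3, the host of the imprinted Nap1l5, had a paternal share of 62.9% ± 21.5 and more paternal reads in 6 of 8 embryos (log2 fold change 0.73, edgeR adjusted p = 1.0). Trappc9, the host of the imprinted Peg13, had 44.8% ± 7.52, and the maternal allele led in 6 of 8 embryos (log2 fold change -0.37, edgeR adjusted p = 1.0). Peg13 itself had 10 paternal and 0 maternal reads in 3 embryos. Of the 6 listed intronic genes and hosts, 4 were tested and 1, Mcts2, passed for parental bias, against 1.42% of all genes. With a term for each embryo 2 passed, when H13 was added, against 3.1% of all genes. The list was made of known imprinted genes and their hosts.

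The total level of the 3 genes was compared between the crosses as the reads of both alleles. Grb10 had 9.80, 14.8 and 12.5 RPM in forward embryos 1, 2 and 3 and 152, 47.5, 8.01, 26.3 and 46.2 RPM in reverse embryos 1, 2, 3, 5 and 7. Reverse embryo 1 was far above the rest, and reverse embryo 3 was below all forward embryos, so that the groups overlapped. The means were 12.4 ± 2.48 (SD, n = 3) and 56.04 ± 56.12 RPM (SD, n = 5), or 32.01 ± 18.73 RPM (n = 4) without reverse embryo 1. The log2 fold change of reverse over forward was 2.10 (SE 0.68, unadjusted p = 0.00820, edgeR adjusted p = 0.497) and was not called, as 0.0688% of 13077 genes were. It was called when the read minimum was dropped (2.10, edgeR adjusted p = 0.0489), as were 0.679% of genes, and an exact permutation test of the log2(RPM + 1) values gave p = 0.143.

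Commd1 had 63.1, 44.3 and 61.8 RPM in the forward and 213, 80.7, 60.1, 84.1 and 66.0 RPM in the reverse embryos, in the same order of embryos. Again reverse embryo 1 was far above the rest, and the groups overlapped at reverse embryo 3. The means were 56.4 ± 10.5 (SD, n = 3) and 101 ± 63.3 RPM (SD, n = 5), or 72.7 ± 11.5 RPM without reverse embryo 1, and the log2 fold change of 0.80 (SE 0.39, edgeR adjusted p = 0.684) was not called. Zrsr1 had 3.06, 0.868 and 7.05 RPM in the forward embryos and 0, 2.502, 2.669, 0.751 and 0 RPM in the reverse embryos. Its 2 embryos without a read were sequenced to depths at which 3 reads are 1.99 and 2.83 RPM, so that a level below these is not excluded. Its log2 fold change of -1.46 (SE 1.34, edgeR adjusted p = 0.742, without the read minimum) was not called.

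**Figure D4:**
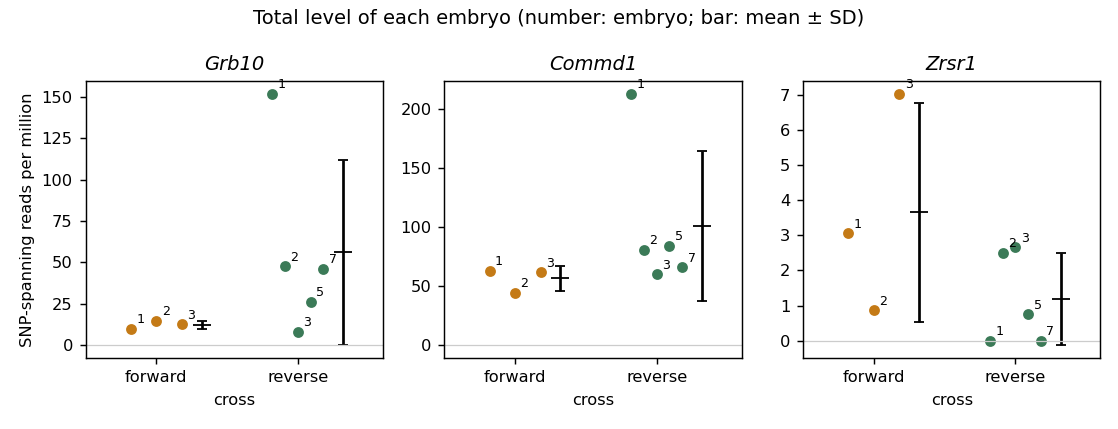
Total level in RPM of Grb10, Commd1 and Zrsr1 on the vertical axes by cross, with a point for each embryo, its number beside it, and the mean ± SD to the right. Reverse embryo 1 has 152 RPM of Grb10 and 213 RPM of Commd1, above every other embryo, and 0 RPM of Zrsr1.

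The neighbours of these genes on chromosome 11 were examined within 250 kb. Of 16 genes in the table, the members Commd1 and Zrsr1 among them, 11 were tested, and 0 passed for parental bias, against 1.42% of all genes tested. Of the 11, Cct4 and Commd1 passed for equivalence, against 35.6% of all genes. At an unadjusted p under 0.05 edgeR gave 0 of 11 for parental bias, and DESeq2 called 0. Cct4, a subunit of the TRiC chaperonin that starts 8137 bases beyond Commd1, had 1373 maternal and 1520 paternal reads (log2 fold change 0.11, equivalence adjusted p = 0.0170 by edgeR). Usp34, a deubiquitinase gene of the same region but beyond 250 kb, also passed for equivalence (adjusted p = 0.0261 by edgeR) with 754 maternal and 751 paternal reads. Near Grb10, Ddc, which encodes aromatic amino acid decarboxylase and is known for paternal expression in the embryonic heart, had 88 maternal and 99 paternal reads, with a log2 fold change of -0.16 (SE 0.59, edgeR adjusted p = 1.0). It overlaps 1700042O10Rik on the other strand, which had 33 maternal and 20 paternal reads.

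Cobl, an actin nucleator next to Grb10 with 102 reads, had a strain difference of -2.35 (SE 1.10, edgeR adjusted p = 0.193). With a term for each embryo it was -3.41 (edgeR adjusted p = 0.0270) and passed in favour of B6. Of the 11 tested genes within 250 kb, 2 passed for strain in this paired fit, against 25.5% of all genes. Ikzf1, a transcription factor of blood cells, had 12 maternal reads and 1 paternal read and a log2 fold change of -2.87 (edgeR adjusted p = 0.751). All 12 maternal reads were in forward embryo 1, where the leukocyte markers were highest, and the paternal read was in reverse embryo 1. Gm39610, an uncharacterised gene 109497 bases from Commd1, was the most paternal tested neighbour with 48 maternal and 170 paternal reads (log2 fold change 1.23, SE 0.60, edgeR adjusted p = 0.699).

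**Figure D5:**
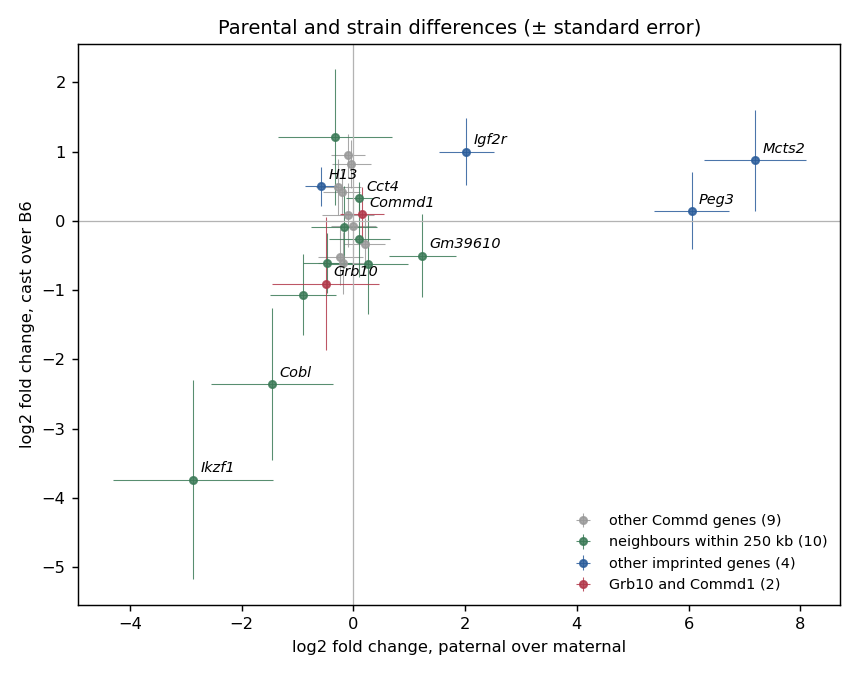
Log2 fold change of paternal over maternal reads on the horizontal axis against that of *cast* over B6 reads on the vertical axis, with standard errors, for Grb10 and Commd1 (red), neighbours within 250 kb (green), other Commd genes (grey) and 4 other imprinted genes (blue). Mcts2 at 7.19, Peg3 and Igf2r lie to the right, although Igf2r is known for maternal expression. Grb10 at -0.49 and Commd1 at 0.16 lie near the vertical line at 0. Zrsr1 is not drawn because it was below the read minimum.

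Of 33 listed genes of insulin and IGF signalling, the pathway that Grb10 acts on, 32 were in the table and 23 were tested. For parental bias 1 passed, against 1.42% of all genes tested, and 9 passed for equivalence, against 35.6%. The median parental log2 fold change was -0.05, against -0.01 over all genes tested. Igf2r, the receptor that clears IGF2, is known for maternal expression. It passed for parental bias in the other direction, with 144 maternal and 473 paternal reads (log2 fold change 2.02, SE 0.50, edgeR adjusted p = 0.0462). The paternally expressed Airn runs antisense through part of Igf2r, so that without a known counting strand the paternal reads of both cannot be told apart. Igf1r, a receptor that Grb10 binds, had the most maternal value of the list at -1.27 (SE 0.47, edgeR adjusted p = 0.376) and passed for strain with -1.62 (SE 0.47, edgeR adjusted p = 0.0266), that is, in favour of B6 like Grb10 in the paired fit. Igf2, the growth factor, had 12 maternal and 31 paternal reads and did not pass (log2 fold change 1.34, edgeR adjusted p = 1.0).

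Among the 9 that passed for equivalence were the kinase regulator Rptor, the kinase Pdpk1 and the Grb10-binding protein Gigyf2, at adjusted p of 0.0167, 0.0249 and 0.0255 (edgeR). With a term for each embryo 15 of the 23 passed for equivalence, against 45.3% of all genes, and 6 instead of 1 for strain, against 25.5%. Read depth was not matched between the list and all genes. Of the 2 other members of the Grb7 adaptor family, Grb7 had 66 maternal and 114 paternal reads (log2 fold change 0.85, SE 0.50, edgeR adjusted p = 0.905). Its mean paternal share was 44.2% in forward and 82.7% in reverse embryos, and its strain difference -0.83 (SE 0.50, edgeR adjusted p = 0.354). Grb14 had 23 paternal reads against 1 maternal read. The paternal count was the higher in 5 of the 6 embryos where both differed, and the gene was below the read minimum. In the fit without the minimum its log2 fold change was 2.89 (SE 1.31, unadjusted p = 0.0276, edgeR adjusted p = 0.460), which did not pass. The strain difference of Grb14 in that fit was -2.07 (SE 1.29, edgeR adjusted p = 0.344), with more B6 reads, and did not pass either.

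Of the COMMD proteins and their sorting complexes, 28 genes were listed, 21 were in the table and 18 besides Commd1 were tested. None passed for parental bias by edgeR, against 1.42% of all genes tested. The median parental log2 fold change was -0.04, 1 of them, Ccdc93, had an unadjusted p under 0.05, and DESeq2 called 0. With a term for each embryo, Ccdc93, a subunit of the complex that Commd1 belongs to, passed with more paternal reads (edgeR adjusted p = 0.0672). It passed for strain in favour of B6 with -1.54 (SE 0.23, edgeR adjusted p = 4.7e-05), and Commd6 in favour of *cast* with 0.95 (SE 0.31, edgeR adjusted p = 0.0509). Equivalence was passed by 12 of 18, 6 of them genes named Commd, against 35.6% of all genes. The share of all genes depends on the read minimum. With at least 12 reads in at least 4 embryos, 5123 of 9318 genes passed. The list was not compared with genes of like read depth. With a term for each embryo 5 instead of 2 of the 18 passed for strain, against 25.5% of all genes.

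Among splice site recognition factors and the minor spliceosome, the machinery to which Zrsr1 and Zrsr2 belong, 17 of the 20 listed genes were tested and 13 passed for equivalence, against 35.6% of all genes tested. As for the COMMD list, read depth was not matched in this comparison. None passed for parental bias by edgeR, against 1.42% of all genes, with 0 at an unadjusted p under 0.05 and 0 called by DESeq2. Sf3b3 (-1.41, edgeR adjusted p = 0.00746) and Phf5a (-1.13, edgeR adjusted p = 0.00882), both subunits of SF3B, passed for strain in favour of B6, and with a term for each embryo 6 of the 17 passed for strain, against 25.5% of all genes. Zrsr2 itself is X-linked and was left out of the tests, and it had 1045 maternal and 363 paternal reads. By the paper the embryos were not matched for sex, so that these counts do not measure a parental bias. U2af1, which encodes the major spliceosome counterpart, had 121 maternal and 126 paternal reads.

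The genes whose paternal share was most like that of the members were sought among 8705 genes with at least 10 reads in at least 6 embryos. For Grb10 these were D930020B18Rik, Gm40696 and Cpeb2, with mean absolute differences of 5.63 and 6.75 percentage points over 6 embryos and 6.997 over 8. For Commd1 they were Wdr73, Ccdc14 and Slk, with 3.80, 3.83 and 4.48 points over 8 embryos. Zrsr1 had no embryo with 10 reads, so that none could be named.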

How the data were processed

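RNA of single blastocysts was sequenced with a SMART-Seq2 compatible protocol. For alignment to mm10 the authors used STAR (version 2.5.2b in the submitters' processing notes). They left out reads with multiple positions, kept reads covering SNPs of both strains and deposited raw counts per gene and strain, taken from an intermediate step of Allelome.Pro. Samples 4 and 6 were left out by the authors. Maternal and paternal counts were assigned here by cross. Gene positions came from GENCODE M21.

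The 16 allele libraries were compared with edgeR 4.0.16 in R 4.3.3 (quasi-likelihood test, TMM factors, terms for strain and parent, Benjamini-Hochberg adjustment over autosomal genes for which some allele library held 10 reads or more, call at adjusted p of at most 0.1). Equivalence used one-sided tests against a log2 margin of 1, and total levels used summed reads. The study's own test was DESeq2, run here (1.42.0) as an alternative. Single genes were compared with exact permutation tests in scipy 1.17.1. RPM relates the reads of a gene to 1000000 SNP-spanning reads of the embryo, with a pseudocount of 1 in logarithms. Intervals are exact binomial (Clopper-Pearson). The alleles of an embryo are a true pair, and their deviations from the group means correlated at 0.0670 to 0.415, so a fit with a term for each embryo was added. On simulated data the fit found 78.8% of 193 changed genes among 11449, and 11.1% of its 171 calls were unchanged genes. The planted log2 changes were 2 or 4 in either direction, of which 65.6% and 91.8% were found. Smaller changes, such as those of Grb10 and Commd1, were not simulated. Allele libraries were drawn independently and without strain differences, unlike the real data.

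The 3 genes, the gene lists and the tests were chosen with earlier results of these data known. Genes named besides them were the most similar in paternal share, the genes of each list that passed a test or had its most extreme value, and tested genes within 250 kb. Grb7, Grb14, Zrsr2, U2af1, Igf2, Ddc, Mcts2, H13, Herc3, Trappc9 and Peg13 were named after their values were seen. The exact tests of Zrsr1, its fit without the read minimum and the means without reverse embryo 1 were added after the data had been seen. Lists of cumulus cell and red blood cell markers had 2 of 5 and 1 of 3 genes in the table, at up to 1.99 and 0.943 RPM, and 4 oviduct and uterine epithelium markers summed to 83.2 to 148 RPM.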

Additional observations from a re-analysis of the deposited data

Results flagged for a closer look

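Grb10 reached 152 RPM and Commd1 213 RPM in reverse embryo 1, each far above the other 4 reverse embryos. The gap to the next embryo was 0.726 of the whole range for Grb10 and 0.842 for Commd1, against a limit of 0.710 for 5 embryos. Chance flags about 1 in 20 such groups if the values are normally distributed, and 5 were examined. The gaps were taken on the RPM scale, and logarithms were not examined in this way. In this embryo the trophectoderm markers were at 930 RPM, the inner cell mass markers at 403 RPM (264 to 403 RPM over the reverse embryos), and Zrsr1 had 0 reads. The part of these values in the high levels was not tested.

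The paternal share of Grb10 differed between the crosses by 43.0 percentage points, reverse minus forward, with exact permutation p = 0.0357, the smallest p that the design allows. All reads shifted by 15.8 points in the same direction, which the test did not take off.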

How the results depend on the processing

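Of 237 values under alternatives, 209 kept their direction and their side of the threshold or stayed within the spread, 25 changed and 3 reversed. For the cases given here the cause was not tested. The parental log2 fold change of Commd1 was -0.10 to 0.30 when 1 embryo was left out and reversed without forward embryo 1 (-0.10). Its strain difference was -0.15 to 0.24 and reversed without the same embryo (-0.15) and with 1 library size per embryo (-0.26). Its equivalence had an adjusted p of 0.104 with 1 library size per embryo, 0.509 with a margin of 1.5-fold, and 0.00819 to 0.201 without single embryos. The parental log2 fold change of Zrsr1 ran from 3.31 to 4.63 without single embryos (edgeR adjusted p = 0.0839 to 0.672). DESeq2 gave no adjusted p for Zrsr1, and the alternatives of its total level were not run.

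The total difference of Grb10 passed without the read minimum (2.10). In the replicate block with a term for each embryo, the strain difference of Grb10 passed (-1.21), 389 genes had parental bias instead of 179 and 3207 had strain bias instead of 1945. The block changed no other call on Grb10, Commd1 or Zrsr1. Without the read minimum 406 genes had parental bias, and 120 to 195 did without single embryos. Strain bias was called in 1206 (without forward embryo 1) to 2453 genes. Equivalence was called in 1608 to 5657 instead of 4478 genes, with 2056, 1838 and 1608 without forward embryos 1, 2 and 3. With the 1.5-fold margin edgeR called 0 genes, with 1139 at an unadjusted p under 0.05, and DESeq2 was not run at that margin. Genes with a different total level numbered 9, and 143 without the read minimum, 136 with DESeq2, 3 without forward embryo 1, 53 without reverse embryo 3 and 160 without reverse embryo 1. Blocking on the replicate number gave 21, but the numbers did not pair embryos across the crosses, since same-numbered embryos correlated at 0.105, 0.00318 and 0.0854. The 24 reads of Zrsr1 limit what can be said of its share in any single embryo.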
